A study of Mus musculus with 4 samples.

Results

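The genes described here carry no gene name of their own. Each is called after the sequenced genomic clone on which a transcript was annotated, for example AC073947.1, in which AC073947 is the clone and the digit after the point numbers the transcript on it. They were chosen by symbol alone, as the rows of the promoter table whose symbol starts with AC, AL, CT, CR, BX or CAAA and goes on with the number of a clone and of a transcript. This gave 1563 of the 26354 promoters, to be compared with the 24791 promoters that carry other symbols. The rule uses the symbol and no count.

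ChIP-seq of H3K9me2 was done on the aortic media, the layer of vascular smooth muscle cells (VSMCs), taken directly from male C57Bl/6J mice after the fat, the adventitia and the endothelium had been stripped off. The labels give no treatment, genetic change or age. There were 2 experiments, v102 and v134, each with 1 H3K9me2 ChIP and 1 input library, the input being chromatin sequenced without the antibody. Reads were counted in the 2 kb around each annotated transcription start, and over all promoters the ChIP libraries held 162233 and 229605 reads and the input libraries 619100 and 1084349. All mice were of the same kind, so the comparison is between chromatin bound by the antibody and input, not between conditions. Expression was not measured in these libraries, so the cell type can only be checked on the mark itself: the 8 promoters of smooth muscle genes (Acta2, Myh11 and others) had a median log2 H3K9me2/input ratio of -1.36, compared with 0.26 for 6 endothelial, 0.66 for 5 leukocyte, -0.65 for 5 adventitial fibroblast and -0.49 for 3 adipocyte promoters. The lists overlapped. Smooth muscle values ran from -2.77 to 1.45 and endothelial ones from -1.53 to 1.73. Leukocyte values ran from -1.72 to 1.71, fibroblast ones from -1.97 to -0.16 and adipocyte ones from -1.21 to -0.22.

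H3K9me2, the dimethylated form of lysine 9 on histone H3, is deposited mainly by the methyltransferases EHMT2 and EHMT1 and is associated with silent genes. In mammalian cells it covers broad domains, many of them poor in genes and rich in repeats, as well as single promoters. Symbols made of a clone name are given to transcripts that automated or manual annotation placed on the genome before a gene name had been assigned. Prefixes AC, AL, BX, CR and CT are those of finished or draft clone sequences in the public archives, and CAAA is the prefix of a whole-genome shotgun assembly of the mouse. Many of these transcripts are noncoding, pseudogenes or small RNAs, but the table does not state their class. Their start sites are not listed in the table, so members are placed by the named genes beside them in its genomic order, and no sequence is shown for them. Where a member is said to lie between or beside genes, this is the order of the rows, and its own position was not known.

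Clone-named promoters carried more H3K9me2 relative to input than promoters with other symbols. The log2 H3K9me2/input ratio of a promoter is given here after scaling each library to its total over the promoters, adding 1 read, and averaging the experiments. Its median was 0.69 over the clone-named promoters (quartiles -0.30 and 1.48), -0.37 over the others (quartiles -1.19 and 0.59) and -0.31 over all promoters. The difference between the medians of these averaged ratios was 1.06. Taken in each experiment alone, it was 0.94 in v102 and 1.05 in v134, and these 2 values had an SD of 0.08 (n = 2). In raw reads, the median clone-named promoter held 7 ChIP reads in v102 and 10 in v134, compared with 4 and 5 at the others. Its median input was 18 reads in v102 and 37 in v134, compared with 20 and 37. The ChIP counts were thus higher while the input counts were close to those of the other promoters or below them.

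**Figure D1:**
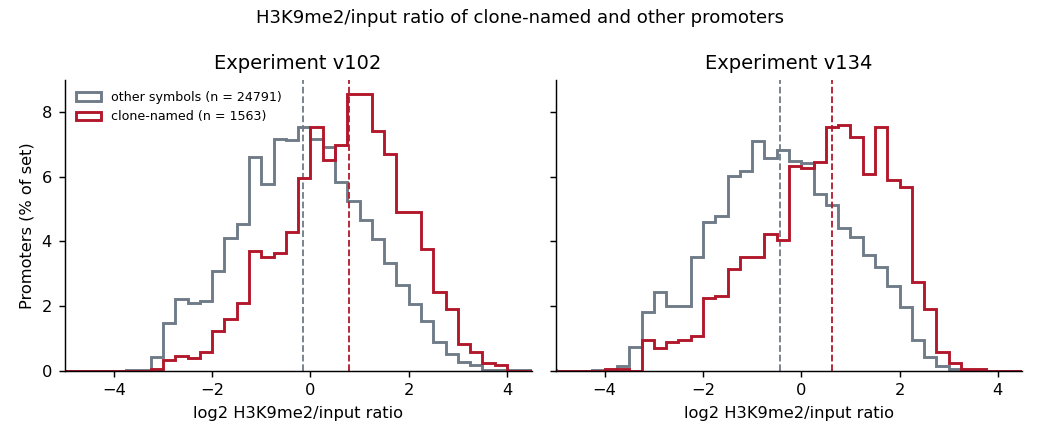
Distribution of the log2 H3K9me2/input ratio (x axis) as a percentage of each set (y axis), for 1563 clone-named (red) and 24791 other promoters (grey), in experiments v102 (left) and v134 (right). Dashed lines are medians; those of the clone-named promoters, 0.78 and 0.62, lie to the right of those of the others, -0.16 and -0.43.

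Counted over whole libraries, clone-named promoters took 8.57% and 8.97% of the ChIP reads and 4.58% and 5.30% of the input reads. Both ChIP libraries lay above both input libraries, by 3.83 percentage points in the mean. With 2 libraries against 2, a two-sided exact permutation test cannot give less than p = 0.333, which is the value obtained. Summed over promoters, clone-named ChIP reads per input read were 1.82 times as many as at the other promoters, with 1.95 in v102 and 1.76 in v134. Without mitochondrial promoters this factor was 1.63. In the deposited ratio, which divides summed ChIP by summed input reads without scaling, the median clone-named promoter had 0.349 and the median other promoter 0.155. The study took the top quartile of this ratio, values of at least 0.343, as its set of promoters with high H3K9me2. That set held 788 of the clone-named promoters (50.4%), compared with 23.4% of the others.

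Tested one by one against input with edgeR (adjusted p under 0.05 over all 26354 promoters), 614 clone-named promoters (39.3%) were above input and 91 (5.82%) were below it. Of all promoters, 18.6% were above and 17.0% below, and of the others 17.3% and 17.7%. The 858 remaining clone-named promoters (54.9%) did not pass. The other kinds of provisional symbol lay between the clone-named promoters and the rest: of 3143 predicted genes numbered Gm, 25.6% were above input and 11.4% below, and of 2131 RIKEN cDNA genes, 17.2% were above and 15.8% below. Among the 19517 promoters with any other symbol, 16.0% were above and 18.9% below. Median log2 ratios followed the same order, at 0.69, 0.10, -0.20 and -0.46. The count of 91 below input rests on very few ChIP reads. It fell to 37 when the experiments were paired with their inputs in a replicate block (all promoters 8.30%). With DESeq2 it was 0 (all promoters 0.110%), but DESeq2 gave no adjusted p to 719 clone-named promoters and 17372 of all promoters. These counted as not called. At an unadjusted p under 0.05, DESeq2 left 40 clone-named promoters below input.

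**Figure D2:**
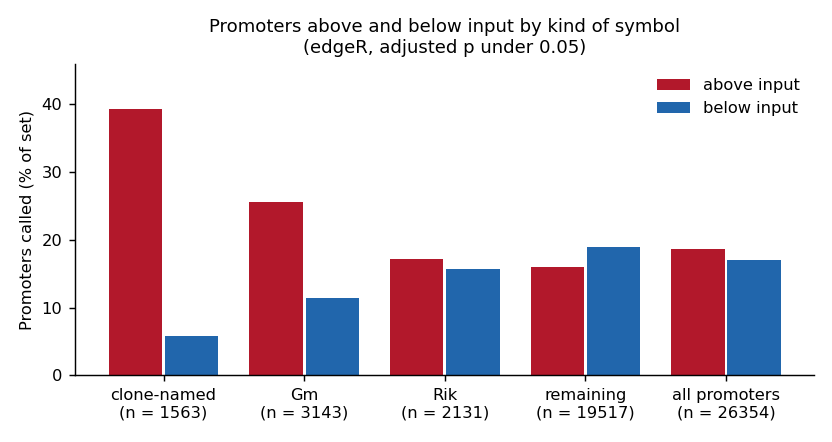
Percentage of each set of promoters (y axis, from 0) that edgeR called above (red) or below (blue) input, by kind of symbol (x axis, with the number of promoters). Clone-named promoters have the highest bar above input, 39.3%, and the lowest below it, 5.82%.

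The call is made from the ChIP counts, so the number of ChIP reads went with it, at the other promoters too. All 220 clone-named promoters with at least 40 ChIP reads summed over both experiments were above input, as were 352 of the 487 with 20 to 39 and 42 of the 446 with 10 to 19. Of the other promoters, 1653 of 1661, 2496 of 4173 and 139 of 6026 in the same classes were above input. All 91 clone-named promoters below input had 8 ChIP reads or fewer, with a median of 2. The clone-named promoters above input had between 14 and 117 ChIP reads, with a median of 34, and log2 fold changes from 0.96 to 3.68 with a median of 1.77. Complete absence of ChIP reads was found at 4 clone-named promoters (0.256%) and at 519 others (2.09%). Input was lower at some members: 146 (9.34%) had at most 30 input reads in both experiments together, compared with 3.53% of the others, and 40.4% reached 20 reads in v102 as well as in v134, compared with 53.9%. In a separate edgeR fit of the promoters where each input held 20 reads or more, 234 of 632 clone-named promoters (37.0%) were above input, compared with 17.5% of all. That fit was scaled anew and moved log2 fold changes of members by 0.35 in the median. Of its 234 calls, 176 were also above input in the fit of all promoters.

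Both experiments placed the clone-named promoters in a similar order. The ratio was above 0 in both experiments at 934 of them (59.8%) and below 0 in both at 338 (21.6%), and the experiments lay on opposite sides at 291 (18.6%). For the other promoters the same shares were 30.5%, 46.5% and 23.0%. Across the 1563 clone-named promoters, rho between v102 and v134 (Spearman) was 0.760 and Pearson's r was 0.733, and across the others they were 0.675 and 0.678. Points of such a correlation are promoters of the same libraries and no independent replicates. The top quartile of all promoters held 756 clone-named promoters in v102 and 769 in v134. Of these, 604 were in both sets, which is 79.9% of the first and 78.5% of the second.

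The 10 clone-named promoters farthest above input had log2 fold changes between 3.01 and 3.68. AC073947.1 was the highest, with 36 and 44 ChIP reads in v102 and v134 against 9 and 21 input reads. Its log2 ratio was 3.55 ± 0.39 (SD, n = 2), and its log2 fold change was 3.68 (SE 0.38, edgeR adjusted p = 7.25e-19). Unless stated, edgeR adjusted p is from the fit without a block. AC073947.1 had a larger adjusted p of 2.61e-06 in the paired edgeR fit with the replicate block, and of 2.48e-08 with DESeq2. It lies on chromosome 9 between the odorant receptor genes Olfr937 and Olfr938, whose starts are 13.9 kb apart and whose own log2 ratios were 2.07 and 2.12. AC225888.2, with 37 and 50 ChIP reads against 12 and 30 input reads, followed at 3.33 (SE 0.35, edgeR adjusted p = 2.17e-17). Its neighbours in the table, Glycam1 and Olfr161, lie on different chromosomes, so it was not placed. Also beside odorant receptors was AC125170.1, between Olfr669 and Olfr670 on chromosome 7, with 18 ChIP reads in each experiment against 11 and 10 input reads and a log2 fold change of 3.01 (edgeR adjusted p = 1.13e-08).

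Several of the highest promoters had matched neighbours whose starts were far apart. AC112139.1 had 22 and 26 ChIP reads against 9 and 16 input reads and a log2 fold change of 3.19 (SE 0.42, edgeR adjusted p = 9.56e-12). It lies on chromosome 6 between Nxph1, which encodes a neurexophilin, and Ndufa4, a mitochondrial respiratory gene, whose starts are 2959 kb apart. Nxph1 had a log2 ratio of 1.63 and Ndufa4 one of -1.34, so the member lay above both. AC118250.1 had 20 and 37 ChIP reads against 7 and 27 input reads, in the 2090 kb between the cadherin gene Cdh9 (log2 ratio 1.96) and C030047K22Rik (-0.25) on chromosome 15. Also on chromosome 15, AC125523.1 had 19 and 30 ChIP reads against 10 and 16 input reads, between the potassium channel subunit gene Kcnv1 and 4930548G14Rik, 1508 kb apart, whose ratios were 2.33 and 2.23. AC167016.1 on chromosome 3 had 20 and 24 ChIP reads against 8 and 17, between Gm8775 and Gm10748 (1001 kb).

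CT025645.1 had the most ChIP reads of any clone-named promoter, 55 and 62 against 15 and 58 input reads. Its log2 fold change was 3.02 (SE 0.33, edgeR adjusted p = 1.67e-16), with log2 ratios of 3.74 in v102 and 2.33 in v134. It lies on chromosome 13 between Irx1, a homeobox transcription factor gene of early patterning, and Gm20554. Both neighbours were low, at -1.77 and -1.02, so this promoter stood apart from the nearest matched promoters on either side. AC156022.1 on chromosome 5, between Gm15731 and Adam22, had 22 and 23 ChIP reads against 5 and 20 input reads. Its experiments differed, at 3.87 in v102 and 2.43 in v134, and its v102 value rests on 5 input reads. AC073939.4, between the immunoglobulin variable segments Ighv1-49 and Ighv8-12 on chromosome 12, differed little between experiments, at 2.93 ± 0.07 (SD, n = 2), with 28 and 54 ChIP reads against 14 and 32 input reads.

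The 10 clone-named promoters farthest below input had at most 1 ChIP read in both experiments together. For these, fold changes are given as bounds from 3 ChIP reads over both experiments where there was no read, or as a ratio to the average promoter with its exact 95% interval, and both cover counting error only. AC100927.1 had no ChIP read in either experiment against 20 and 43 input reads, at least 4.83-fold lower than the average promoter (edgeR adjusted p = 3.29e-04). It lies on chromosome 3 between Gm5641 and Exosc8, which encodes a subunit of the RNA exosome. A second transcript of the same clone, AC100927.2, had 0 and 1 ChIP reads against 19 and 54 input reads, a relative ratio of 0.0596 (interval 0.00149 to 0.342).

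Also without any ChIP read were AC192711.2 on chromosome 17, between the tyrosine kinase gene Fer and Pja2, with 16 and 37 input reads, and AL954388.2 on chromosome 2, between the nucleoporin gene Nup188 and Gm14471, with 19 and 31 input reads. They were at least 4.06-fold and 3.83-fold lower than the average promoter. AC132452.1 had 1 and 0 ChIP reads against 27 and 65 input reads, a relative ratio of 0.0473 (interval 0.00118 to 0.270). It is next to Lrp5, a co-receptor for Wnt ligands, on chromosome 19. AC162446.1 (chromosome 8, beside Pde4c), AC122807.1 (chromosome 8, beside the small nucleolar RNA gene Snord71), AC093451.1 (chromosome 8, beside the alanyl-tRNA synthetase gene Aars) and AL603664.1 (chromosome 11, beside the RNA helicase gene Ddx5) had 1 ChIP read each. Their relative ratios lay between 0.0518 and 0.0630. Of these 10, 6 lay between genes whose starts were at most 50 kb apart, compared with 2 of the 9 highest that were placed, a count made after the values were seen.

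**Figure D3:**
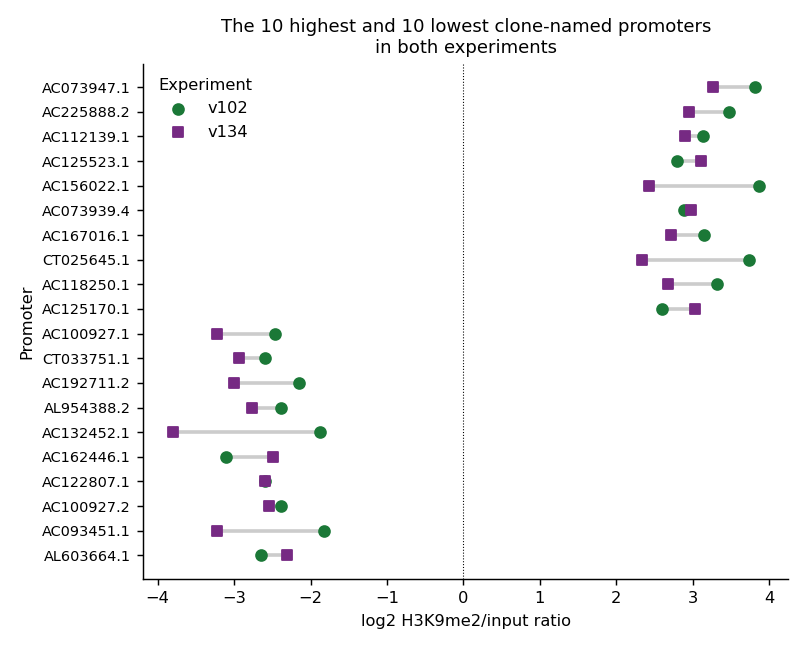
Log2 H3K9me2/input ratio (x axis) in v102 (circles) and v134 (squares) for the 10 clone-named promoters with the highest and the 10 with the lowest log2 fold change. Grey lines join the experiments; all values of the upper group lie above 2 and all of the lower group below -1, and these promoters were picked from the ends of the same distribution.

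The members with the most input reads show the mark where the counts are least limited. AC242409.1, in the 857 kb between the ubiquitin-conjugating enzyme gene Ube2e2 and the basement membrane gene Nid2 on chromosome 14, had 19 and 84 ChIP reads against 34 and 88 input reads. Its log2 fold change was 1.99 (SE 0.32, edgeR adjusted p = 2.78e-08). AC087117.1 and AC087117.2 share a clone and lie between Snord52 and 1110038B12Rik on chromosome 17. They had 3 and 2, and 2 and 2, ChIP reads against 30 and 82, and 32 and 85, input reads, and their log2 fold changes were -2.16 and -2.54 (edgeR adjusted p = 0.00243 and 5.72e-04). The starts of their neighbours are 1.45 kb apart, so if the members start between them, their windows overlap and share reads. AC122417.1, between Srcap, a chromatin remodelling gene, and Snora30 on chromosome 7, had 2 and 2 ChIP reads against 24 and 87 and a log2 fold change of -2.44 (edgeR adjusted p = 0.00114). AL807778.1, with 7 and 5 ChIP reads against 26 and 86 input reads, did not pass (-0.88, edgeR adjusted p = 0.135).

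High ChIP counts were also found at AC144543.1, AC153908.1 and AC154424.1. AC144543.1 had 48 and 57 ChIP reads against 34 and 65 input reads and a log2 fold change of 2.36 (edgeR adjusted p = 6.14e-11). It lies between Papola, which encodes a poly(A) polymerase, and the kinase gene Vrk1 on chromosome 12, whose log2 ratios were -1.22 and -1.39. AC153908.1, between Crbn and Lrrn1 on chromosome 6, had 44 and 57 ChIP reads against 20 and 44 and a log2 fold change of 2.94 (edgeR adjusted p = 2.66e-15). AC154424.1, in the 2432 kb between Cox7c and Gm8526 on chromosome 13, had 41 and 50 ChIP reads against 14 and 49 and a log2 fold change of 2.85 (edgeR adjusted p = 2.65e-14).

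Prefixes of the clone names differed in level, and the part of chromosome and locus in this was not tested. The 1157 promoters named AC had a median log2 ratio of 0.82, and 503 of them (43.5%) were above input and 73 below. The 307 named AL had a median of 0.28, with 72 above (23.5%) and 16 below. The 63 named CT had a median of 0.88, with 27 above (42.9%) and 1 below. Of 17 promoters named BX, 5 were above input, and of 12 named CAAA, 6 were above, with none below in either set by edgeR. The 7 named CR had the lowest median, -0.48. Among them CR974575.1, in the 959 kb between Twist1, a transcription factor of mesoderm, and the histone deacetylase gene Hdac9 on chromosome 12, had 12 and 13 ChIP reads against 15 and 36. Its log2 fold change was 1.25 (edgeR adjusted p = 0.0201), and it did not pass with DESeq2 (adjusted p = 0.109). CR974444.1, between the helicase gene Ddx39b and the class I histocompatibility gene H2-D1 on chromosome 17, had 1 and 0 ChIP reads against 20 and 37 and a relative ratio of 0.0763 (interval 0.00190 to 0.442, edgeR adjusted p = 0.00571). The other 5, CR974568.1, CR974423.1, CR974486.1, CR974483.1 and CR956641.1, did not pass, with edgeR adjusted p between 0.0537 and 0.827. The CR clones were too few for a comparison with the other prefixes.

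Members were placed on chromosomes through the nearest named promoters on either side in the table, which runs in genomic order. Symbols of 22243 other promoters matched a single gene of GENCODE vM21 (GRCm38), and 99.955% of the 22178 tested lay on the chromosome of the matched promoters around them. In this way 1542 clone-named promoters were placed between neighbours of the same chromosome, and 21 were not. Of those 22178, 87.3% also had their lowest gene coordinate, whatever the strand, between those of the matched genes around them. The distance between the starts of the neighbouring genes is therefore an approximate measure of a member's surroundings and does not give its position. Promoters whose symbols were not matched, other members included, can lie in the same interval. The median distance was 163 kb for clone-named promoters and 94.6 kb for the others.

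H3K9me2 over clone-named promoters was higher where the neighbouring genes were farther apart. Where the neighbours started at most 50 kb apart, the 320 members had a median log2 ratio of -0.03, and 61 (19.1%) were above and 39 (12.2%) below input. At 50 to 200 kb the median of 547 members was 0.31, with 24.5% above input. At 200 to 500 kb it was 0.91 for 315 members, with 47.0% above, and at 500 to 1000 kb it was 1.29 for 164 members, with 64.0% above. Over 1000 kb it was 1.59 for 196 members, of which 152 (77.6%) were above input and 3 below. In v102 the medians went from 0.17 in the first class to 1.52 in the last, and in v134 from -0.11 to 1.58. Median input fell from 58 to 51.5 reads across these classes, and the part of this fall in the ratio was not tested.

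The other promoters differed less between the same classes. Their medians were -0.54, -0.35, -0.29, -0.15 and 0.16, and 15.2%, 16.3%, 18.0%, 23.9% and 31.8% of them were above input. Clone-named promoters were higher than the others in each class. The classes were set after the values were known, and members that share neighbours also share their class.

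**Figure D4:**
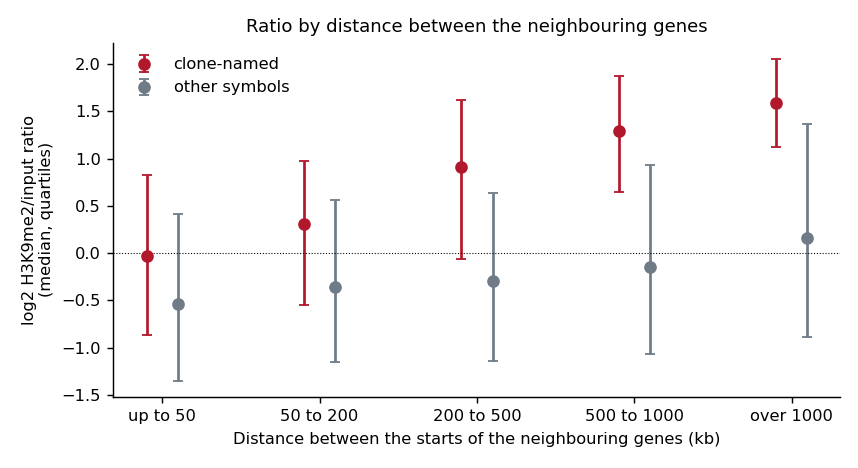
Median log2 H3K9me2/input ratio with quartiles (y axis) of clone-named (red) and other promoters (grey), by the distance in kb between the starts of the neighbouring genes (x axis, classes). Clone-named medians go from -0.03 to 1.59, those of the others from -0.54 to 0.16.

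Members were on the whole high where the promoters beside them were high. Across the 1542 placed members, the log2 ratio and the mean of the flanking promoters went together with rho = 0.519 (Spearman) and r = 0.530 (Pearson), a description over promoters that partly share neighbours. Where the neighbours averaged above 0, 402 of 687 members (58.5%) were above input and 13 below, with a median log2 ratio of 1.29. Where they averaged 0 or less, 198 of 855 (23.2%) were above and 78 below, with a median of 0.16. Members were nevertheless higher than the promoters beside them more often than other promoters were. The member lay above both neighbours in 782 cases (50.7%) and below both in 257 (16.7%), compared with 31.2% and 31.0% for the others. The median difference from the mean of the neighbours was 0.62 for members and 0.00 for the others.

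Antigen receptor loci held the most marked group of members. These loci carry the variable, diversity and joining segments that lymphocytes recombine into immunoglobulin and T cell receptor genes, and they are not recombined in smooth muscle. Both neighbours of 75 members were such segments, and 61 of these members (81.3%) were above input and none below by edgeR, with a median log2 ratio of 1.95. The 54 segments beside them had a median of 2.01, and 44 (81.5%) were above input, so members and segments were at a similar level. Of the 47 members in the immunoglobulin heavy chain locus on chromosome 12, 40 were above input, with a median of 1.98. Of the 22 in the kappa light chain locus on chromosome 6, 20 were above input, with a median of 2.13. T cell receptor loci had lower medians: of 3 members in the beta locus none passed (median 0.18), and of 3 in the alpha and delta loci 1 was above input (median 0.88). Input was lower at the 75 members than at other members, with medians of 13 and 27 reads, and the part of this in the ratio was not tested.

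Clones with several members gave series of promoters across the heavy chain locus. Clone AC160985 holds 7 members between Ighv5-2 and Ighv7-3, and all 7 were above input, with a median log2 ratio of 2.31 and a range of 1.53 to 2.48. Among these AC160985.1 had 18 and 43 ChIP reads against 16 and 35 input reads, and AC160985.7 had 22 and 34 against 17 and 30. Clone AC079181 holds 5 members between Ighv1-30 and Ighv8-12, all above input, with a median of 2.40. The 4 members of AC073590, between Ighv3-6 and Ighv6-6, were the most alike, at 2.33 to 2.47, with 29 to 31 ChIP reads in v102 and 31 to 48 in v134. All 4 members of AC160990, between Ighv8-14 and the zinc finger gene Zfp386, and 3 of the 4 of AC073563, between Ighv7-2 and Ighv7-1, were also above input (medians 2.03 and 1.93). AC160990.4 did not pass in the paired fit with the replicate block (edgeR adjusted p = 0.0525). With a minimum of 10 ChIP reads, AC160985.2, AC160985.4, AC079181.2, AC160990.4, AC160990.5 and AC073563.3 did not pass (edgeR adjusted p between 0.0511 and 0.203). They met this minimum themselves, and its fit was scaled anew and moved log2 fold changes of members by -0.82 in the median.

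Clone AC073553, at the constant region end of the locus, had a lower median. Its 12 members lie between Ighm, the constant gene of immunoglobulin M, and Gm16968, around the joining and diversity segments, and their median was 1.40. The 3 members between Ighm and Ighj4 did not pass, with log2 fold changes from 1.03 to 1.37 and only 3 to 7 ChIP reads in a library. Of the 7 between Ighj1 and Ighd1-1, 5 were above input, although AC073553.21 did not pass with the replicate block (adjusted p = 0.0990) and AC073553.9 did not pass with DESeq2 (adjusted p = 0.0816). AC073553.21 did not pass with library totals either (edgeR adjusted p = 0.0538). With a minimum of 10 ChIP reads, which all 5 met, none of them passed (edgeR adjusted p between 0.109 and 0.331). That fit, scaled anew, moved log2 fold changes of members by -0.82 in the median. The 2 between Ighd1-1 and Gm16968 were the highest. AC073553.4 had 28 and 37 ChIP reads against 10 and 33 input reads and a log2 fold change of 2.89 (edgeR adjusted p = 1.79e-12), and AC073553.13 had 24 and 54 against 20 and 47, with 2.47 (edgeR adjusted p = 5.05e-11). The difference between the ends of the clone was not tested.

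A smaller set of 21 members had odorant or vomeronasal receptor genes on both sides. These receptors are used by sensory neurons of the nose. In this set 17 members (81.0%) were above input and none below by edgeR, with a median log2 ratio of 1.86. The 33 receptor promoters beside them had a median of 1.77, and 28 were above input. Without the 96 members beside antigen, odorant or vomeronasal receptors, 536 of the 1467 left (36.5%) were above input and 91 below, with a median of 0.59. The classes of neighbour were set after the values were known.

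Members inside clusters of microRNA genes were less uniform. MicroRNAs are short RNAs that lower the translation and stability of messenger RNAs, and several mouse clusters of them lie in imprinted regions. Of 30 members with microRNA genes on both sides, 11 were above input and 1 below, with a median of 0.88. Clone AL772216 holds 16 members among the Mir466, Mir467, Mir669 and Mir297 genes of chromosome 2, more than any other clone, and its median was 0.62 (range -0.19 to 1.56). AL772216.13 and AL772216.53, with 13 and 19, and 14 and 20, ChIP reads, were above input (log2 fold changes 1.65 and 1.56), and the other 14 did not pass. Clone AC119249, between Ube2nl and Mir344e on chromosome 7, was higher, with all 5 members above input and a median of 1.70. The same stretch of chromosome 7 holds clone AC117644, between Mir344f and the imprinted gene Ndn, in which 3 of 4 members were above input (median 1.27). In clone AC121784, between Mir411 and Mir412 in the imprinted microRNA cluster of chromosome 12, 3 of 4 members were above input (median 1.61). AC117644.3 and AC121784.1 did not pass with DESeq2 (adjusted p = 0.105 and 0.0851). With a minimum of 10 ChIP reads, AL772216.13, AL772216.53 (adjusted p = 0.133 and 0.166 by edgeR), AC119249.1, AC119249.3, AC117644.1, AC117644.3 and AC121784.1 did not pass. Each of them met the minimum, and the newly scaled fit moved log2 fold changes of members by -0.82 in the median.

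Of the 12 clones with 4 or more members, 2 held no member above input. None of the 5 members of AL591496, between Smyd4 and Serpinf1 on chromosome 11, passed with edgeR, and their log2 ratios lay between -0.04 and 0.67 with 2 to 6 ChIP reads in a library. None of the 4 of AC153874 on chromosome 10, between Gm3233 and Lrrc3, passed either, and their experiments differed, with medians of 1.45 in v102 and -0.24 in v134. In all, the 1563 members came from 1382 clones. A single member was contributed by 1264 clones, and the 118 others held 299 members. Members of a clone were more alike than members at large, with a pooled SD of the log2 ratio of 0.69 within clones compared with 1.20 over all members. They are neighbours and can share reads, so they are no replicates of each other. AL671011.1 and AL671011.2 had the same 4 counts (5 and 1 in ChIP, 23 and 36 in input).

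The higher level of clone-named promoters was found on each of the 19 autosomes and on the X chromosome. The median difference from the other promoters was largest on chromosome 12, at 1.79, where the clone-named median was 1.50 and 69 of 119 members (58.0%) were above input, compared with 18.4% of the others there. This chromosome holds the heavy chain locus. Chromosome 15 followed with a difference of 1.68 and 29 of 56 members above input. The differences were smallest on chromosome 2, at 0.48, and on chromosome 11, at 0.59. On both of these the share of members above input, 17.9% and 9.72%, was below that of the other promoters, 21.7% and 11.8%, although the member median was higher. On the X chromosome, present in a single copy in male mice, the median input was 27 reads at the 40 members and 30 at the other promoters, and 18 members (45.0%) were above input, with a median log2 ratio of 1.37. Of the other promoters there, 14.5% were above input, with a median of -0.03. No member was placed on the Y chromosome.

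**Figure D5:**
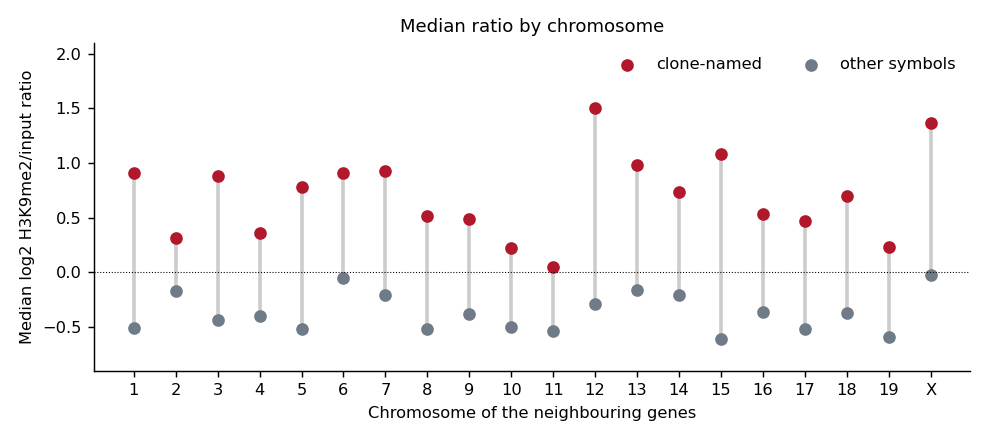
Median log2 H3K9me2/input ratio (y axis) of clone-named (red) and other promoters (grey) for each chromosome given by the neighbouring genes (x axis). Grey lines join the medians, which are farthest apart on chromosome 12 (1.50 and -0.29) and closest on chromosome 2 (0.32 and -0.17).

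The 21 members that could not be placed lie where the neighbouring rows belong to different chromosomes, or after the last matched row. Of these, 14 were above input (66.7%) and none below by edgeR, with a median log2 ratio of 1.34. CAAA01217562.1, between rows matched to Nlrp4g and 9230019H11Rik, had 14 and 17 ChIP reads against 9 and 20 input reads and a log2 fold change of 2.36 (edgeR adjusted p = 8.77e-06). In the same interval of the table, CAAA01154301.1 had 3 and 3 ChIP reads against 28 and 39 and did not pass (-1.22, edgeR adjusted p = 0.116). AC163691.1, one of a pair of members after the Y-linked gene Zfy2 at the end of the table, had 8 and 27 ChIP reads against 11 and 10 input reads, with log2 ratios of 1.52 and 3.59. These members were named after their values were seen.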

How the data were processed

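H3K9me2 ChIP and input libraries of 2 experiments were analysed. Per the submitters' processing notes and the methods, the authors trimmed paired-end 75 bp reads (Trim Galore 0.4.2, cutadapt 1.9.1), aligned them to GRCm38 (Bowtie2 2.2.7) and, with SeqMonk, took reads up to 1 kb on either side of a transcription start. The annotation release, duplicate handling and mapping quality minimum are not given in the sources used here, and reads in repeats could be lost or misplaced. The deposited counts are raw reads per promoter and library. The authors also deposited both experiments' counts added up, and an unscaled ratio, ChIP over input, of these sums. They removed promoters under 20 input reads, and the lowest summed input in the table was 21, so clone-named genes with less input are not seen here.

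ChIP and input counts were compared over all 26354 promoters with edgeR 4.0.16 (R 4.3.3), quasi-likelihood test, TMM scaling and Benjamini-Hochberg adjustment at 0.05, without a block. Because libraries were scaled to each other, above and below input are relative to the average promoter. Log2 ratios used library totals over the promoters and a pseudocount of 1. The median promoter held 4 and 5 ChIP reads, which limits single promoters. Exact (Clopper-Pearson) 95% intervals and the floor of 3 counts cover counting error only, since reads carry no molecular identifiers. The experiment number pairs each ChIP with its associated input according to the methods. The differences between experiments of ChIP and of input had a correlation of 0.0933 over the promoters. The ChIP pair and the input pair each differed more than counting error alone would give (chi-square divided by its degrees of freedom 1.52 and 1.28). The source of this spread was not tested. Whether animals were pooled is not stated, so p-values measure the spread between these libraries.

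Placement used GENCODE vM21 symbols of neighbouring rows. Only 86 clone-named symbols (5.50%) were in that annotation, and 49 of these had their lowest coordinate between those of their neighbours, so its coordinates and GC content were not used for members. Alternatives were DESeq2 1.42.0, library totals, the replicate block, other minimum counts, other pseudocounts, leaving out an experiment and leaving out mitochondrial promoters. The edgeR step was tested on simulated data. Named members were the 10 highest and 10 lowest called log2 fold changes on the same side of 0 in both experiments, the 5 with the most input and the 5 with the most ChIP reads, those with a prefix of fewer than 10 members, and clones of 4 or more members. The surroundings of 1 of them are not reported here. The symbol rule, lists and tests were chosen with earlier results of these data known. Other steps ran in Python 3.11.15 with scipy 1.17.1, pandas 2.3.3, numpy 2.4.6 and matplotlib 3.10.9.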

Additional observations from a re-analysis of the deposited data

How the results depend on the processing

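The median difference between clone-named and other promoters kept its direction under every alternative run: it was 0.68 with a pseudocount of 5, 0.78 where both inputs held 20 reads or more, and 0.94 to 1.05 with a single experiment. The median log2 ratio of clone-named promoters was 0.99, 0.19 and 0.62 to 0.78 under the same alternatives, and 0.53 without mitochondrial promoters. The pooled ratio relative to other promoters was 1.63 without mitochondrial promoters and 1.76 to 1.95 with a single experiment. The share in the top quartile was 45.9% under the same minimum on the inputs and 48.2% to 48.9% with a single experiment, and 23.4% of members were in the top 10%. Clone-named promoters above input numbered 382 with DESeq2, 234 of 632 under that minimum, and 262 of 1153 with at least 10 ChIP reads, compared with 614, and the shares of all promoters were then 11.5%, 17.5% and 14.6%. Those below input numbered 0, 32 and 24, compared with 91, and 37 in the paired fit with the replicate block, which called 510 above. The minimum of 10 ChIP reads changed the scaling and moved log2 fold changes of members by -0.82 in the median. Its 24 promoters below input could not include any of the 91, which had 8 ChIP reads or fewer and were left out. The minimum of 20 reads in each input moved log2 fold changes of members by 0.35, and 176 of its 234 promoters above input were among the 614. Library totals in place of TMM moved the median of all promoters by -0.14 and gave 545 above and 125 below. DESeq2 gave no adjusted p for 719 members and for 17372 of all 26354 promoters. Its counts and shares take these as not called, whereas those under the minimum counts hold tested promoters only. The DESeq2 shares are therefore not like the others. Among the named members, the block ended 2 calls (AC073553.21 and AC160990.4) and changed no other. DESeq2 ended 4 calls (CR974575.1, AC073553.9, AC117644.3 and AC121784.1) among the named members to which it gave an adjusted p. It gave none to the named members called below input, or to AC073553.7, AC073553.21, AC079181.2 and AC160990.4, so their calls could not be compared. The minimum of 10 ChIP reads ended 19 calls among the named members it kept. The GC correction was not run, because under 80% of the members have a GC value, and leaving out an experiment leaves 1 library against 1, so the edgeR test was not run there. Low ChIP counts limit most of all the calls below input.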

Other observations

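A further 31 promoters carry clone-like names that the symbol rule leaves out, such as those of RP23 and RP24 clones. Their median log2 H3K9me2/input ratio was 0.22, with 8 above and 5 below input by edgeR, and their median input was 23 and 39 reads in v102 and v134, compared with 18 and 37 at the clone-named promoters. The 34 members with predicted Gm genes on both sides had a median of 0.96, with 17 above input and none below by edgeR.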
